A study of Mus musculus with 30 samples.

Results

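The genes described here are 44 genes of adult hippocampal neurogenesis and of the progenitor cell cycle, chosen by name for their known roles, out of 49315 genes in the count table. They fall into 4 stages, namely 14 stem cell and Notch pathway genes, 11 cell cycle genes, 4 genes of intermediate progenitors and 15 genes of immature neurons. Their transcripts were counted in whole-tissue RNA of the hippocampus in 17 WT and 13 TIMP2 KO mice of the C57BL/6J strain. Of these, 7 TIMP2 KO and 7 WT mice were female, and 6 TIMP2 KO and 10 WT mice were male. The TIMP2 KO mice carry a constitutive knockout in every cell, so a difference cannot be assigned to one cell type. The controls were littermates, and the study's methods name more than one age range for its mice without saying which applies to those sequenced. The question was whether the transcripts of newborn neurons and their precursors differ between TIMP2 KO and WT hippocampi.

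New granule cells are made throughout life in the subgranular zone of the dentate gyrus. Radial glia-like stem cells, which express Sox2, Nes and Hopx and are held in a resting state by Notch signaling through Rbpj and the Hes repressors, enter the cell cycle and give rise to intermediate progenitors that express Eomes (Tbr2) and Neurog2. These become neuroblasts that express Dcx, Sox11 and Calb2 and then mature granule cells. Dividing cells express Mki67, the cyclins and the MCM subunits of the replicative helicase. TIMP2 is a secreted inhibitor of matrix metalloproteinases that takes part in the turnover of the extracellular matrix.

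Promoters of 34 of the 44 genes were found in the RefSeq table for GRCm38.p6, and 5 are shown because they belong to 4 helicase subunits that are compared below and to the Notch target Hes5. Each is the 250 bases before the RefSeq start, written 5′ to 3′ on the gene's strand. Capitals mark E2F motifs (TTTGGCGC, TTTCGCGC or TTTCCCGC on either strand) in the MCM genes and RBPJ motifs (GTGGGAA on either strand) in Hes5. Those of Mcm2 (chr6:88898781-88899030), Mcm3 (chr1:20820313-20820562) and Mcm6 (chr1:128359706-128359955) lie on the minus strand, and those of Mcm5 (chr8:75109259-75109508) and Hes5 (chr4:154960673-154960922) on the plus strand.
Mcm2: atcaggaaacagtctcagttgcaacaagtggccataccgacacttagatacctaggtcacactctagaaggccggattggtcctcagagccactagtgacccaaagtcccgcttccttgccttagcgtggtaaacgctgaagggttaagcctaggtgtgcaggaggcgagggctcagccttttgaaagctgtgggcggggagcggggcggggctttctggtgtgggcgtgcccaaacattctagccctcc
Mcm3: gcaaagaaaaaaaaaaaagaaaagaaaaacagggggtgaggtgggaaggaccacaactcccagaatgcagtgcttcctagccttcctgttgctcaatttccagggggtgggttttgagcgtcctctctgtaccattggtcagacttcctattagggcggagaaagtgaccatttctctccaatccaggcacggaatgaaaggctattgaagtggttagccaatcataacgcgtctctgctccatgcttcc
Mcm5: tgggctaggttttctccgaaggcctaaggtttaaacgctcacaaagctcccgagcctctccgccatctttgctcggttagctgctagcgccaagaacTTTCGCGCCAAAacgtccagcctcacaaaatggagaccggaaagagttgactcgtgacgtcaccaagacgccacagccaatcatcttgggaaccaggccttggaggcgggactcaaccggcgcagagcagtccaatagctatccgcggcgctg
Mcm6: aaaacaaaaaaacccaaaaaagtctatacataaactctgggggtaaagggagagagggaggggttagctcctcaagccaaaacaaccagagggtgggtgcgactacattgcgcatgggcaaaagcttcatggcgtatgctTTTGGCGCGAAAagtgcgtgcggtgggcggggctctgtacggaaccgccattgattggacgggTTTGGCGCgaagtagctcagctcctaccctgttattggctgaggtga
Hes5: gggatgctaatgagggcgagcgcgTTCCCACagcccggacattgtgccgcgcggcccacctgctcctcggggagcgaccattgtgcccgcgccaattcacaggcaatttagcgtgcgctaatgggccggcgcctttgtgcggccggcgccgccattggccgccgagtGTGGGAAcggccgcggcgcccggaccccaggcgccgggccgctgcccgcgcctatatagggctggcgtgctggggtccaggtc
Mcm6 held matches at positions -110 to -99 and -47 to -40 from the start, the first made of a match on each strand that overlap. Mcm5 held a pair of overlapping matches at positions -153 to -142, and no E2F motif of these letters stood in the windows of Mcm2 and Mcm3. An E2F motif was present in 1.55% of the 32544 promoters of the same length in the table and in those of 4 listed genes (Cdk1, Hopx, Mcm5 and Mcm6). The RBPJ motif was present in 5.43% of all promoters and in those of 2 listed genes (Hes5 and Mcm3). Part of the Hes5 window is also an exon of Gm20421, a transcript on the other strand.

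Totals lay between 18345517 and 41081083 counts per mouse, and the sex in the labels matched the data in all 14 females and all 16 males. Timp2 itself had between 130 and 171 counts scaled to the size of the library (CPM) in TIMP2 KO mice and between 256 and 380 in WT mice, so the groups did not overlap, while the transcript remained counted in the TIMP2 KO mice. Markers of the dentate gyrus (Prox1, C1ql2), of CA1 (Wfs1, Fibcd1) and of CA3 (Bok, Grik4) were detected in every mouse. Some mice stood apart. Choroid plexus markers were highest in mouse 11 (TIMP2 KO, female), whose Ttr reached 635 CPM against at most 36.5 CPM in WT mice. The mean of the dentate granule cell markers was lowest in mouse 10 (TIMP2 KO, male), and Timp2, Dcx and Calb2 were lowest in mouse 18 (TIMP2 KO, male). Calls of the listed genes that change without one of these mice are given both ways.

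Levels differed widely across the listed genes. Per kilobase of exon, the median WT level was highest for the tubulin Tubb3 (109 CPM per kb), the microtubule regulator Stmn1 (98.8) and the tubulin Tubb2b (73.5), which are also expressed in mature neurons. Among the stem cell genes, Hopx (42.8 CPM per kb) and Sox2 (26.6) were highest, both of which astrocytes also express. The neuroblast gene Dcx (1.05 CPM per kb) and the dividing cell genes Mki67 (0.164) and Top2a (0.108) were much lower. This did not hold for their stages as a whole, since Calb2 (18.4), Pcna (16.6) and Ccnd1 (10.9) were higher. The stem cell gene Nes (1.59) was in turn close to Dcx. Eomes (0.0604 CPM per kb) and Cdk1 (0.0521), the kinase that drives mitosis, were the lowest, at 1 to 22 and 1 to 16 counts per mouse, and did not pass the filter on low counts.

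Across the 42 genes that passed the filter, TIMP2 KO and WT hippocampi differed little. An unadjusted p under 0.05 in edgeR's quasi-likelihood test was found for 3 of 42 genes (7.14%), against 5.03% of all 16486 genes tested, a share near that of all genes. Id3 and Tubb3 were higher in TIMP2 KO mice (2 of 42, against 2.47% of all genes) and Mcm6 was lower (1 of 42, against 2.56%). After Benjamini-Hochberg adjustment over all genes tested, 0 of the 42 genes passed, against 0.0546% of all genes, and the smallest adjusted p was 0.882 (0.352 or more in each of the 10 alternative fits, DESeq2 and limma among them). The fold change was positive for 24 genes and negative for 18, with a median log2 fold change of 0.02 against 0.00 over all genes and a median absolute value of 0.03 against 0.03. The 95% interval of the log2 fold change reached ±0.10 around the estimate in the median gene, and it lay inside ±0.25 for 35 of 42 genes and inside ±0.5 for all 42. In tissue RNA, fewer cells of a type and less RNA per cell cannot be told apart.

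**Figure D1:**
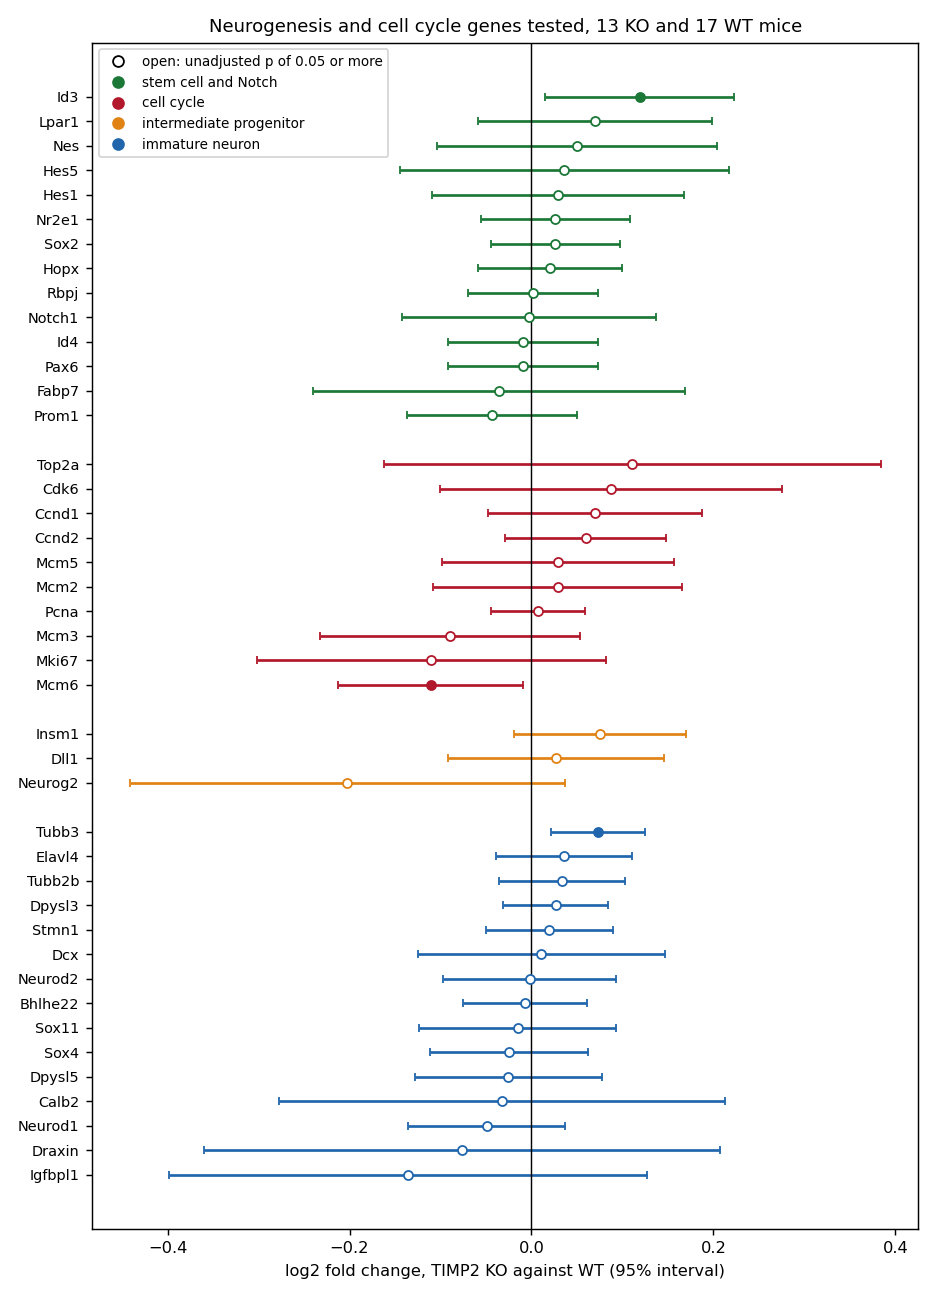
Log2 fold change of TIMP2 KO against WT (horizontal axis) for each of the 42 genes tested, in 4 stages by color, with 95% intervals as bars and filled points for an unadjusted p under 0.05. The 3 filled points are Id3 (0.12), Mcm6 (-0.11) and Tubb3 (0.07), and the widest interval, ±0.28 around the estimate, belongs to Draxin.

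Of the 14 stem cell and Notch genes, 1 (7.14%) had an unadjusted p under 0.05, against 5.03% of all genes. It was Id3, higher in TIMP2 KO mice, and the other 13 did not pass. Id3 (ENSMUSG00000007872, chromosome 4, 136143497 to 136145755, plus strand, GRCm38) encodes an inhibitor of basic helix-loop-helix transcription factors that is also expressed in astrocytes and vessels. Its level was 23.8, 26.2 and 31.4 CPM (lowest, median and highest) in TIMP2 KO mice and 20.9, 24.7 and 28.9 CPM in WT mice. The groups overlapped over most of their range, and the log2 fold change was 0.12 (SE 0.05, p = 0.0258, adjusted p = 0.952). Without mouse 10 the p was 0.0518. All 5 choroid plexus markers tested had positive log2 fold changes in TIMP2 KO mice, as given below. Their part in the value of Id3 was not tested by a fit.

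Sox2, a transcription factor of stem cells and astrocytes, lay at 47.5, 54.1 and 60.9 CPM in TIMP2 KO mice and at 45.5, 54.7 and 58.4 CPM in WT mice. The values of the groups covered nearly the same range, with a log2 fold change of 0.03 (95% interval -0.04 to 0.10). Nes, the intermediate filament of neural precursors, lay at 8.83, 10.5 and 15.0 CPM in TIMP2 KO and at 8.14, 10.2 and 13.4 CPM in WT mice (log2 fold change 0.05, SE 0.08). Hopx, a homeodomain protein of resting stem cells, lay at 60.0, 66.9 and 71.5 CPM in TIMP2 KO and at 56.4, 64.8 and 79.8 CPM in WT mice (0.02, SE 0.04). The Notch effectors Hes1 (0.03, SE 0.07), Hes5 (0.04, SE 0.09), Rbpj (0.00, SE 0.04) and the receptor Notch1 (-0.003, SE 0.07) were close to 0 on the log2 fold change scale. So were the transcription factors Nr2e1 (0.03, SE 0.04) and Pax6 (-0.01, SE 0.04), Id4, a relative of Id3 (-0.01, SE 0.04), the lipid-binding protein Fabp7 (-0.04, SE 0.10), the membrane protein Prom1 (-0.04, SE 0.05) and the lysophosphatidic acid receptor Lpar1 (0.07, SE 0.06). Exons of Hes5 and Hopx overlap transcripts on the other strand that reached at most 30 and 21 counts per mouse, and 1068 exon bases of Notch1 overlap one with at most 24 counts.

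Of the 10 cell cycle genes tested, 1 (10%) had an unadjusted p under 0.05, against 5.03% of all genes. It was Mcm6, lower in TIMP2 KO mice, and the other 9 did not pass. Mcm6 (ENSMUSG00000026355, chromosome 1, 128331590 to 128359664, minus strand, GRCm38) encodes a subunit of the replicative helicase. It lay at 14.8, 16.8 and 21.1 CPM in TIMP2 KO mice and at 16.7, 18.5 and 24.5 CPM in WT mice. The TIMP2 KO values reached lower, and the highest value was that of a WT female, mouse 21. The log2 fold change was -0.11 (SE 0.05, p = 0.0328, adjusted p = 0.952), a decrease of 7.40% (95% interval 0.665% to 13.7% lower). Mcm6 passed at an unadjusted p under 0.05 in each of the 10 alternative fits, with log2 fold changes between -0.13 and -0.11. None of these fits left out mouse 21.

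The other helicase subunits on the list were lower expressed and gave mixed signs. Mcm2 lay at 4.92, 5.80 and 7.07 CPM in TIMP2 KO mice and at 4.27, 5.62 and 7.28 CPM in WT mice, with a log2 fold change of 0.03 (SE 0.07). For Mcm3 the values were 2.66, 3.18 and 4.51 CPM in TIMP2 KO mice and 2.86, 3.44 and 4.23 CPM in WT mice, with a log2 fold change of -0.09 (SE 0.07, p = 0.210). Mcm5, which shares the E2F motif with Mcm6 in the promoters printed above, had a log2 fold change of 0.03 (SE 0.06), and did not pass. Of the other listed genes with that motif, Hopx did not pass and Cdk1 was below the filter.

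Mki67 encodes Ki67, which is present in dividing cells and absent from resting ones. Its 26 to 68 counts per mouse gave values from 1.21 to 2.28 CPM in TIMP2 KO mice and from 1.22 to 2.42 CPM in WT mice. The ranges were nearly the same, and the log2 fold change of -0.11 had a 95% interval from -0.30 to 0.08 (p = 0.252). Top2a, a topoisomerase of dividing cells, lay at 0.783, 1.06 and 1.27 CPM in TIMP2 KO and at 0.538, 0.971 and 1.85 CPM in WT mice (0.11, SE 0.13, p = 0.415). Without a filter on low counts, Cdk1 had a log2 fold change of 0.12 (SE 0.30). The G1 cyclins Ccnd1 (0.07, SE 0.06) and Ccnd2 (0.06, SE 0.04), their partner kinase Cdk6 (0.09, SE 0.09) and the replication clamp Pcna (0.01, SE 0.03) did not pass. In all, 1100 bases of Ccnd1 exons overlap LTO1, a protein-coding gene on the other strand with up to 562 counts per mouse.

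None of the 3 intermediate progenitor genes tested passed over both sexes (Neurog2, Insm1 and Dll1). Neurog2, a proneural transcription factor, lay at 1.08, 1.40 and 2.07 CPM in TIMP2 KO mice and at 1.06, 1.65 and 3.24 CPM in WT mice. Its log2 fold change of -0.20 was the largest decrease among the 42 genes (SE 0.12, p = 0.0947). Without mouse 11, which had the highest Neurog2 of the TIMP2 KO mice, it was -0.26 (p = 0.0328), and with sex and 8 surrogate variables in the fit it was -0.36 (p = 0.00174, adjusted p = 0.352). Eomes, the defining factor of these cells, had a median of 0.218 CPM in TIMP2 KO and 0.251 CPM in WT mice, and its log2 fold change without a filter was -0.53 (SE 0.33, p = 0.113). Insm1, a zinc finger factor of delaminating progenitors, had a log2 fold change of 0.08 (SE 0.05), and the Notch ligand Dll1 one of 0.03 (SE 0.06). Of Dll1's 4219 exon bases, 867 overlap A930024N18Rik, a noncoding transcript on the other strand with up to 107 counts per mouse, against 110 to 219 counts for Dll1.

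Of the 15 immature neuron genes, 1 (6.67%) had an unadjusted p under 0.05, against 5.03% of all genes. It was Tubb3, higher in TIMP2 KO mice, and the other 14 did not pass. Tubb3 (ENSMUSG00000062380, chromosome 8, 123411424 to 123422015, plus strand, GRCm38), the neuronal class III tubulin, is expressed by newborn and mature neurons alike. It lay at 195, 215 and 228 CPM in TIMP2 KO mice and at 191, 204 and 222 CPM in WT mice. The groups overlapped over most of their range, and the log2 fold change of 0.07 (SE 0.03, p = 0.00647, adjusted p = 0.882) is a rise of 5.20% (95% interval 1.53% to 9.00%). It passed at an unadjusted p under 0.05 in each of the 10 alternative fits.

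Dcx (ENSMUSG00000031285, chromosome X, 143855842 to 143933311, minus strand, GRCm38), a microtubule-associated protein of migrating neuroblasts, lay at 10.4, 13.4 and 20.0 CPM in TIMP2 KO mice and at 12.0, 13.3 and 18.0 CPM in WT mice. The medians nearly coincided, and the lowest value (mouse 18) and the highest value (mouse 30) both belonged to TIMP2 KO mice. The log2 fold change of 0.01 (SE 0.07, p = 0.871) had a 95% interval from a decrease of 8.28% to a rise of 10.7%. Sox11, a transcription factor of newborn neurons, lay at 11.5, 13.5 and 15.4 CPM in TIMP2 KO and at 10.5, 13.1 and 16.4 CPM in WT mice (-0.02, SE 0.05). Neurod1, a differentiation factor of granule neurons, lay at 26.2, 31.1 and 35.5 CPM in TIMP2 KO and at 28.8, 32.2 and 37.3 CPM in WT mice (-0.05, SE 0.04, p = 0.253). It shares 201 exon bases on its own strand with Cerkl, which had at most 116 counts per mouse.

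Calb2, the calcium-binding protein calretinin of early postmitotic neurons and of some interneurons, lay at 8.24, 32.8 and 38.4 CPM in TIMP2 KO mice and at 19.8, 32.1 and 39.6 CPM in WT mice. The value of 8.24 CPM was that of mouse 18, and the next lowest mouse of either genotype was at 19.8 CPM. The log2 fold change was -0.03 (SE 0.12, p = 0.788) with mouse 18 and 0.06 (p = 0.453) without it. Igfbpl1 (-0.14, SE 0.13) and the axon guidance protein Draxin (-0.08, SE 0.14), at 18 to 77 and 8 to 35 counts per mouse, had the most negative values of the immature neuron genes and wide intervals. The collapsin response mediators Dpysl3 (0.03, SE 0.03) and Dpysl5 (-0.03, SE 0.05), Stmn1 (0.02, SE 0.03) and the RNA-binding protein Elavl4 (0.04, SE 0.04) were all close to 0. The same was true of Tubb2b (0.03, SE 0.03) and of the transcription factors Sox4 (-0.03, SE 0.04), Neurod2 (-0.002, SE 0.05) and Bhlhe22 (-0.01, SE 0.03).

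**Figure D2:**
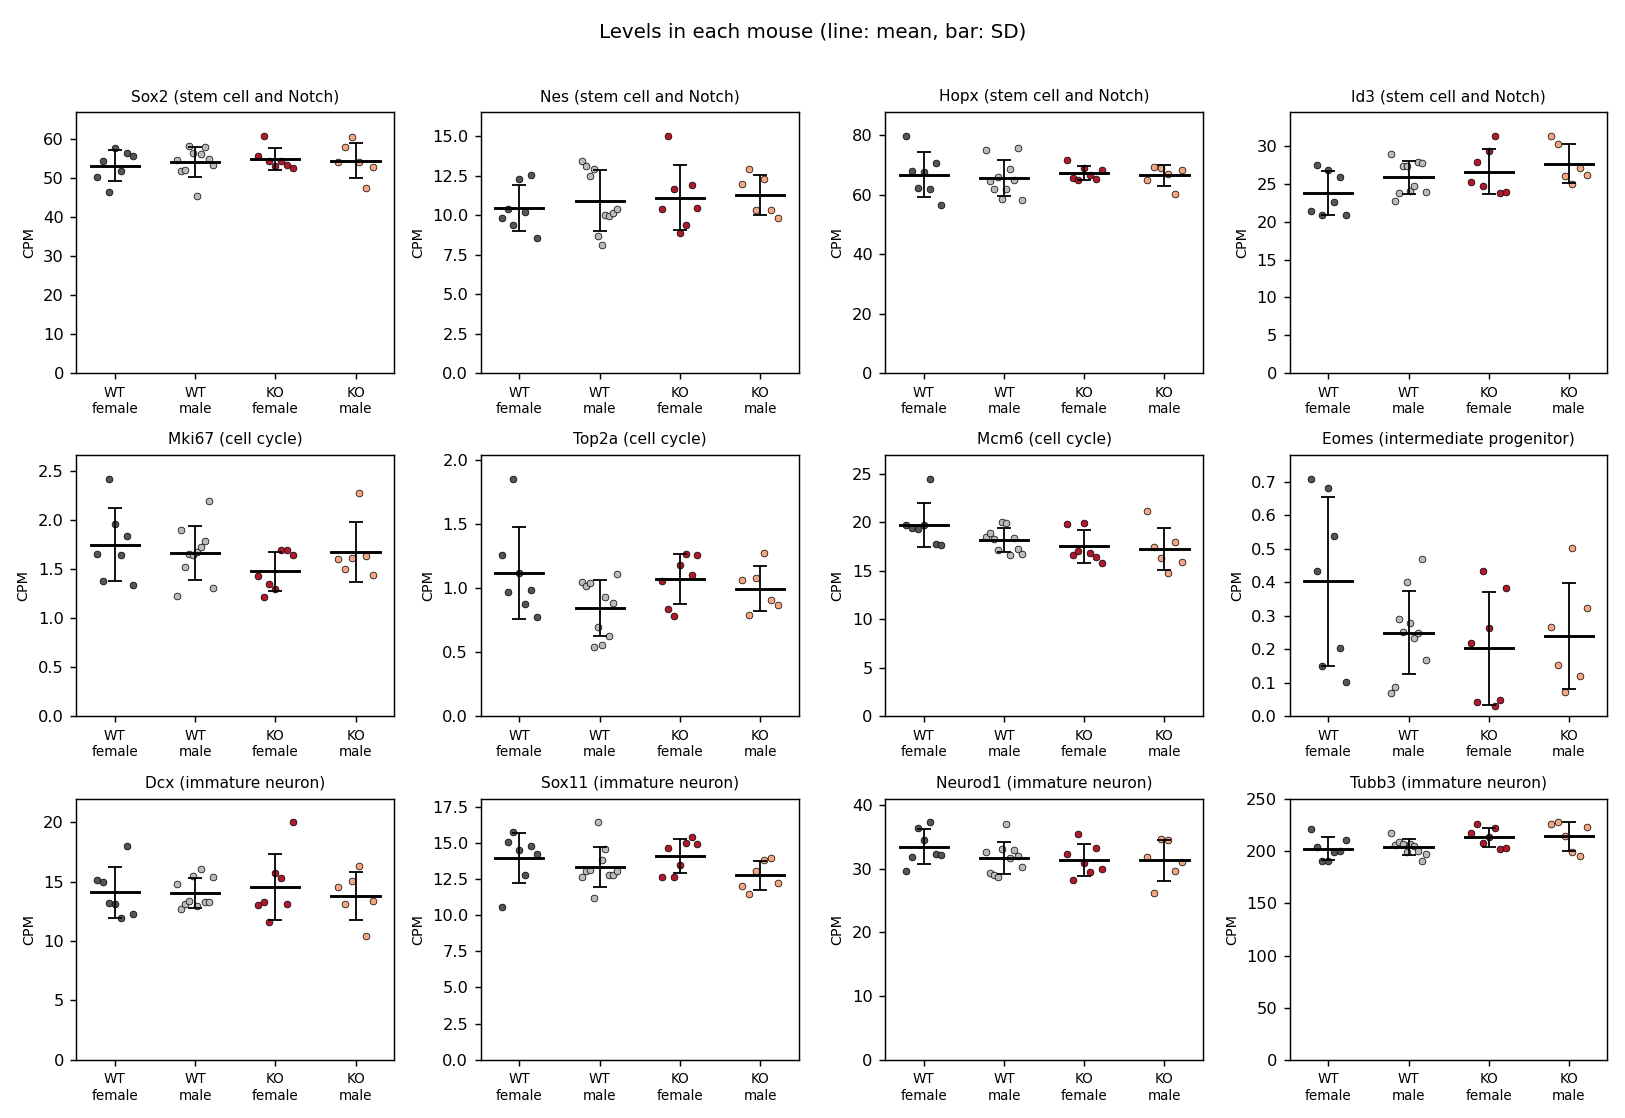
Levels in CPM (vertical axes, from 0) of 12 named genes in each mouse, by genotype and sex, with the mean as a line and the SD as a bar. Points of TIMP2 KO and WT mice overlap in every panel, among them Dcx (10.4 to 20.0 CPM in TIMP2 KO, 12.0 to 18.0 in WT) and Tubb3 (195 to 228 and 191 to 222).

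The mean log2 level of each stage differed between the genotypes by less than the SD among the WT mice. That SD is the spread of single mice and not the error of a difference between group means, which was not tested. The difference, TIMP2 KO minus WT, was 0.02 for the stem cell and Notch genes (SD among WT mice 0.06), 0.01 for the cell cycle genes (SD 0.08), -0.03 for the intermediate progenitor genes (SD 0.12) and -0.02 for the immature neuron genes (SD 0.05). Markers of mature dentate granule cells had negative log2 fold changes for 12 of 12 genes, of which 5 passed at an unadjusted p under 0.05 (Prox1, Dsp, Tdo2, Stxbp6 and Dock10), against 2.56% of all genes that were lower, and 0 after adjustment by edgeR. Their mean log2 level ranged from 5.12 to 5.55 in TIMP2 KO and from 5.32 to 5.87 in WT mice, and none of the 12 was at 0 in any mouse. The genotypes differed by -0.12 in this mean, with an SD of 0.16 among single WT mice. The difference of this mean was not tested, nor was its part in the values of Mcm6, Neurog2 and Neurod1. The log2 fold change was positive for 6 of 6 CA3 pyramidal cell markers, of which 1 passed, and for 8 of 8 oligodendrocyte markers, of which 0 passed at an unadjusted p under 0.05 by edgeR. Of 9 choroid plexus markers 5 were tested, and all 5 had a positive log2 fold change. An unadjusted p under 0.05 was found for 4 of them (Ttr, Clic6, Enpp2 and Sostdc1), against 2.47% of all genes that were higher. After adjustment by edgeR 1 of the 5 passed (smallest adjusted p 0.0326). Their mean log2 level ranged from 2.51 to 6.01 (median 3.21) in TIMP2 KO and from 1.87 to 3.74 (median 3.04) in WT mice. The 6.01 was that of mouse 11, and 6 of 13 TIMP2 KO mice lay below the WT median. Calls of these markers without mouse 11 are not given here. Kcnj13 was at 0 in some mice of both genotypes.

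Of 104 further genes of the same pathways, 96 were tested, and 8 (8.33%) had an unadjusted p under 0.05, 4 higher and 4 lower in TIMP2 KO mice, against the 5.03% of all genes. None passed after adjustment by edgeR, where the smallest adjusted p was 0.850. Prox1, the transcription factor that maintains granule cell identity, had the smallest p (log2 fold change -0.16, SE 0.05, p = 0.00500), with medians of 125 CPM in TIMP2 KO and 141 CPM in WT mice. It is also one of the dentate granule cell markers above. Of the 29 cell cycle genes tested, 3 passed (10.3%, against 5.03% of all genes). The mitotic kinase Aurka was higher (0.19, SE 0.07, p = 0.00946), while the thymidine kinase Tk1 (-0.50, SE 0.19, p = 0.0145) and the chromatin protein Hmgb2 (-0.21, SE 0.09, p = 0.0347) were lower. Tk1 rests on 4 to 21 counts per mouse. Gfap, the filament protein of astrocytes and radial glia-like stem cells, was higher (0.09, SE 0.03, p = 0.0115), as was the Wnt modulator Dkk3 (0.07, SE 0.03, p = 0.0356). The other 2 that passed were Marcksl1, lower, and Vegfa, higher. None of the 12 Notch pathway genes tested passed. The count of 8 fell to 4 without mouse 18, where 5.6% of all genes passed. Without that mouse Hmgb2 (p = 0.0733) and Dkk3 (p = 0.0915) no longer passed, and by limma voom they did not pass either (p = 0.0634 and p = 0.0585). Hmgb2 also did not pass without mouse 10 (p = 0.0605), and Aurka (p = 0.0912) and Gfap (p = 0.0546) did not pass with sex and surrogate variables in the fit.

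In females alone, an unadjusted p under 0.05 was found for 3 of 42 genes (7.14%), against 5.02% of all genes. They were Id3 and Tubb3, higher (2.33% of all genes were), and Mcm6, lower (2.69% of all genes were), in mice that also entered the comparison above. In males alone 0 of 42 genes passed by edgeR or by DESeq2, against 3.25% of all genes (1.61% higher and 1.64% lower). After adjustment by edgeR or DESeq2 no listed gene passed in either sex, against 0.0122% of all genes in females and 0.0181% in males. The log2 fold change of Id3 was 0.17 (SE 0.08) in females and 0.10 (SE 0.06) in males, that of Mcm6 -0.17 (SE 0.07) and -0.08 (SE 0.06), and that of Tubb3 0.08 (SE 0.04) and 0.07 (SE 0.04). The difference between the sexes in these effects, tested as the interaction of sex and genotype, was 0.07 (SE 0.10) for Id3, -0.09 (SE 0.10) for Mcm6 and 0.003 (SE 0.05) for Tubb3 on the log2 scale, and none of these had an unadjusted p under 0.05.

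The female comparison depended on mouse 11. Without it, 6 of 43 genes passed at an unadjusted p under 0.05, against 4.65% of all genes, and of the 3 above only Mcm6 was among them (-0.20, SE 0.07, p = 0.0105). Lower in TIMP2 KO females were then also Igfbpl1 (-0.43, SE 0.16, p = 0.0147), Neurog2 (-0.41, SE 0.17, p = 0.0251) and Eomes (-1.17, SE 0.53, p = 0.0388), and higher were Ccnd1 (0.18, SE 0.07) and Elavl4 (0.09, SE 0.04). The adjusted p of each was 0.992 by edgeR. Eomes passed the filter on low counts in females only without mouse 11, when the smaller TIMP2 KO group lowered the number of mice needed. Its counts were higher in WT females, as given below. The filter may thus have admitted it through the group where it was high, so its p is not a test of a decrease. The mean of the dentate granule cell markers was lower by 0.20 (log2) in TIMP2 KO than in WT females, and by 0.06 in males. In females 8 of 12 markers were lower at an unadjusted p under 0.05, against 2.69% of all genes. The part of this mean in the values of the listed genes was not tested by a fit. Neurog2 lay at 1.25, 1.43 and 2.07 CPM in TIMP2 KO females and at 1.43, 1.74 and 3.24 CPM in WT females, and the 2.07 CPM was that of mouse 11. Igfbpl1 lay between 0.753 and 1.85 CPM in TIMP2 KO females, with mouse 11 highest again, and between 1.19 and 1.75 CPM in WT females. Eomes had medians of 0.218 CPM in TIMP2 KO females and 0.435 CPM in WT females, with 1 to 11 and 2 to 22 counts per mouse. The values of all 3 genes overlapped between the genotypes. In males, leaving out mouse 10 gave 1 of 42 genes that passed, Neurod2 (0.13, SE 0.06, p = 0.0300), against 4.07% of all genes. Leaving out mouse 18 gave 2 of 42, Hes5 (0.22, SE 0.10, p = 0.0338) and Tubb3 (0.10, SE 0.04, p = 0.0102), against 3.57% of all genes.

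**Figure D3:**
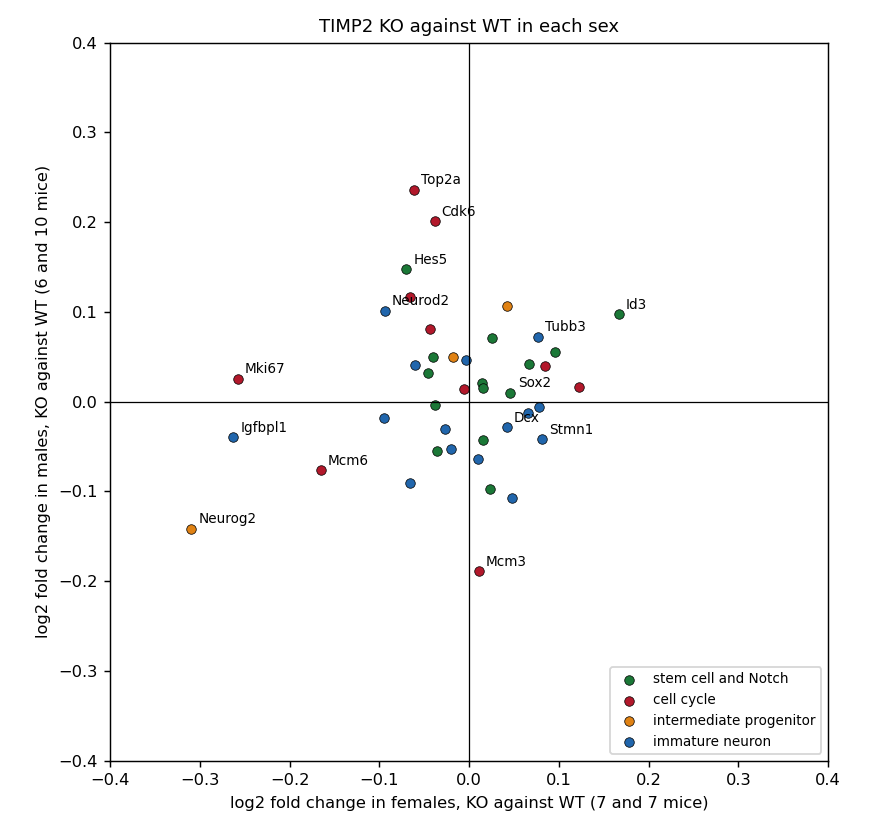
Log2 fold change of TIMP2 KO against WT in females (horizontal axis) and in males (vertical axis) for the genes tested in both, colored by stage. Id3 (0.17 and 0.10) and Tubb3 (0.08 and 0.07) lie above 0 in both sexes, Mcm6 (-0.17 and -0.08) and Neurog2 (-0.31 and -0.14) below 0 in both, and Neurod2 (-0.09 and 0.10) has opposite signs.

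Of the 43 genes tested for an interaction of sex and genotype, 1 had an unadjusted p under 0.05 (2.33%), against 2.66% of all genes (1.43% with a positive and 1.23% with a negative interaction), and 0 of all genes passed after adjustment by edgeR, where 455 had an unadjusted p under 0.05 (415 by DESeq2). The gene was Neurod2 (ENSMUSG00000038255, chromosome 11, 98325415 to 98329648, minus strand, GRCm38), a transcription factor of differentiating and mature excitatory neurons. It lay at 181, 186 and 208 CPM in TIMP2 KO females and at 180, 203 and 229 CPM in WT females. In males it lay at 199, 217 and 266 CPM in TIMP2 KO and at 188, 203 and 232 CPM in WT mice. The TIMP2 KO median was thus below that of WT in females and above it in males, and the interaction was -0.20 (SE 0.08, p = 0.0224, adjusted p = 1.00). The highest value, 266 CPM, was that of mouse 18, and without it the interaction was -0.14 (p = 0.0742).

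Between the sexes, with genotype in the fit, 7 of 42 genes (16.7%) had an unadjusted p under 0.05, against 9.77% of all genes. Of these, 5 were higher in females (5.14% of all genes were) and 2 lower (4.63%). After adjustment by edgeR or DESeq2 0 passed, against 0.218% of all genes. Hes1, a Notch-induced repressor of proneural genes, was lower in females, at 8.70, 11.2 and 12.1 CPM against 10.2, 12.1 and 15.5 CPM in males (log2 fold change, females against males, -0.20, SE 0.06, p = 0.00255, adjusted p = 0.209). The highest female stood at the level of the median male, and the lower part of the male range overlapped that of the females. Tubb2b, a tubulin of growing neurites, was higher in females, at 167, 175 and 191 CPM against 148, 163 and 198 CPM in males (0.09, SE 0.03, p = 0.00353, adjusted p = 0.231). The stem cell factors Pax6 (0.09, SE 0.04, p = 0.0164) and Nr2e1 (0.09, SE 0.04, p = 0.0232), Top2a (0.28, SE 0.13, p = 0.0382) and Neurog2 (0.25, SE 0.11, p = 0.0301) were also higher in females, and Neurod2 was lower (-0.11, SE 0.04, p = 0.0190). Of these, Nr2e1 (p = 0.0504) and Top2a (p = 0.0592) no longer passed without mouse 10, and Neurog2 (p = 0.0626) no longer passed without mouse 11. Dpysl5, higher in females, passed without mouse 10 (p = 0.0136) or mouse 11 (p = 0.0482), and Sox11, higher in females, passed without mouse 18 (p = 0.0435). The dentate granule cell markers were higher in females by 0.11 in their mean log2 level. Females and males stood at 5.62 and 5.44 among WT mice, and at 5.42 and 5.38 among TIMP2 KO mice. The part of these markers in the values of the listed genes was not tested.

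**Figure D4:**
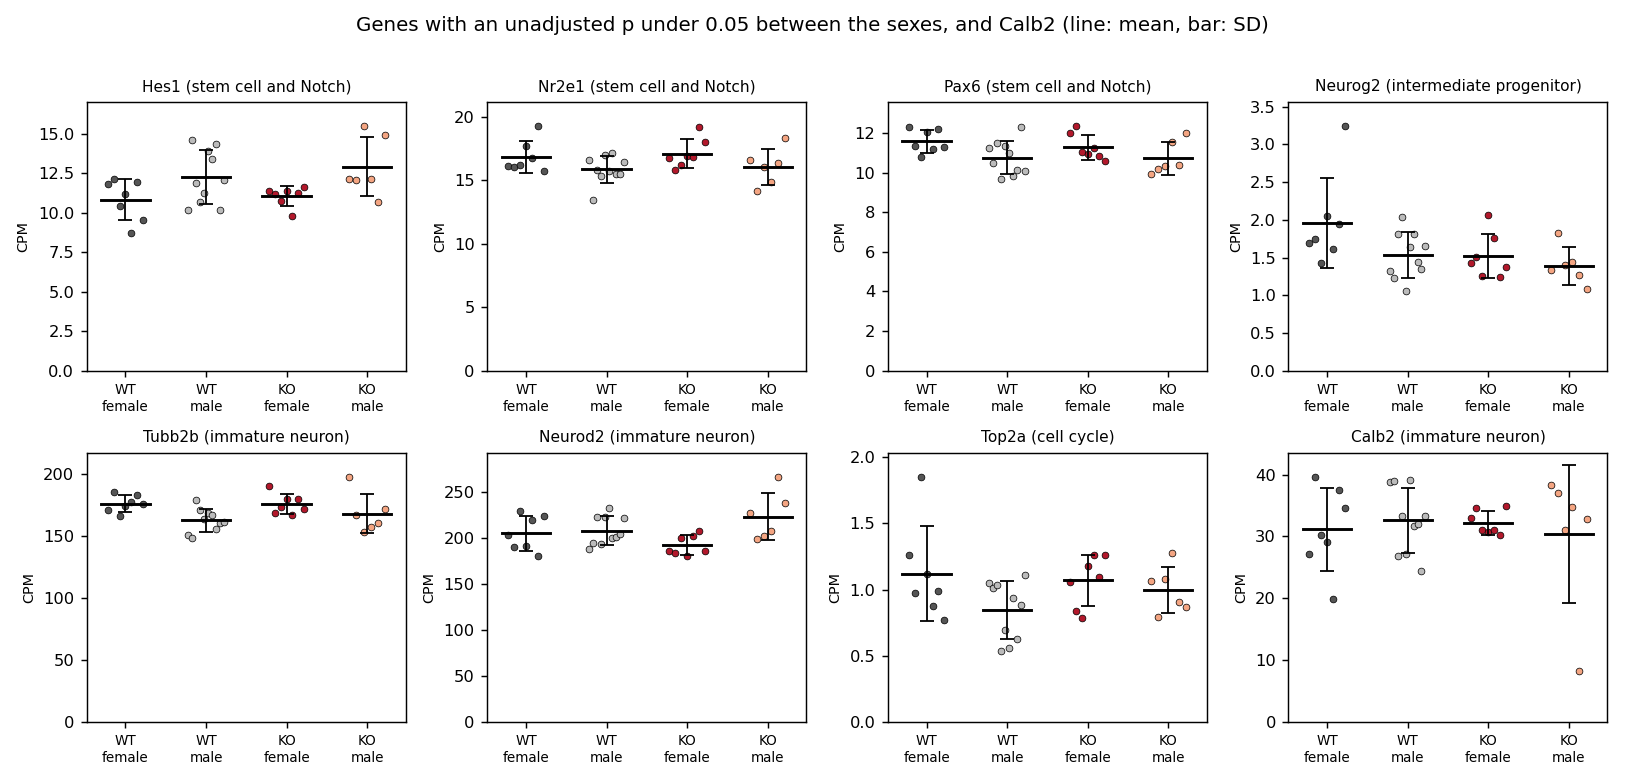
Levels in CPM (vertical axes, from 0) by genotype and sex of the 7 genes with an unadjusted p under 0.05 between the sexes and of Calb2, with the mean as a line and the SD as a bar. Hes1 is lower in females (median 11.2 CPM) than in males (12.1 CPM), and a single Calb2 value of 8.24 CPM in a TIMP2 KO male lies far below the rest.

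From mouse to mouse the listed genes were only weakly correlated, and the highest values stood mainly among immature neuron genes. After removal of the genotype means, Pearson's r over the 30 mice had a median of 0.01 across the 861 pairs of the 42 genes, and 1.51% of the pairs were over 0.5, against 1.41% of all gene pairs. Within the immature neuron genes 8 of 105 pairs (7.62%) were over 0.5, within the stem cell and Notch genes 1 of 91, and within the cell cycle genes 0 of 45. Among the cell cycle genes, counts per mouse were low for Top2a (14 to 49) and Mki67 (26 to 68) and high for Ccnd2 (1728 to 3637). The part of counting error in r was not tested. Within the immature neuron genes the highest values joined Elavl4 with Dpysl5 (r = 0.69), with Calb2 (0.61), with Tubb3 (0.59) and with Stmn1 (0.59), and Calb2 with Dpysl3 (0.67). Between stages the highest was that of the Notch effector Rbpj with Neurod2 (0.62). Neurod2 and Bhlhe22, both transcription factors of differentiated granule and pyramidal neurons, were negatively correlated with Elavl4 (both r = -0.59). These are descriptions over mice that share library preparation, dissection and depth. Mouse 18 had the lowest Calb2 and Dcx, the highest Neurod2 and the lowest mean of the immature neuron genes (4.79). It takes part in each of these values, and r without it was not computed for the pairs.

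**Figure D5:**
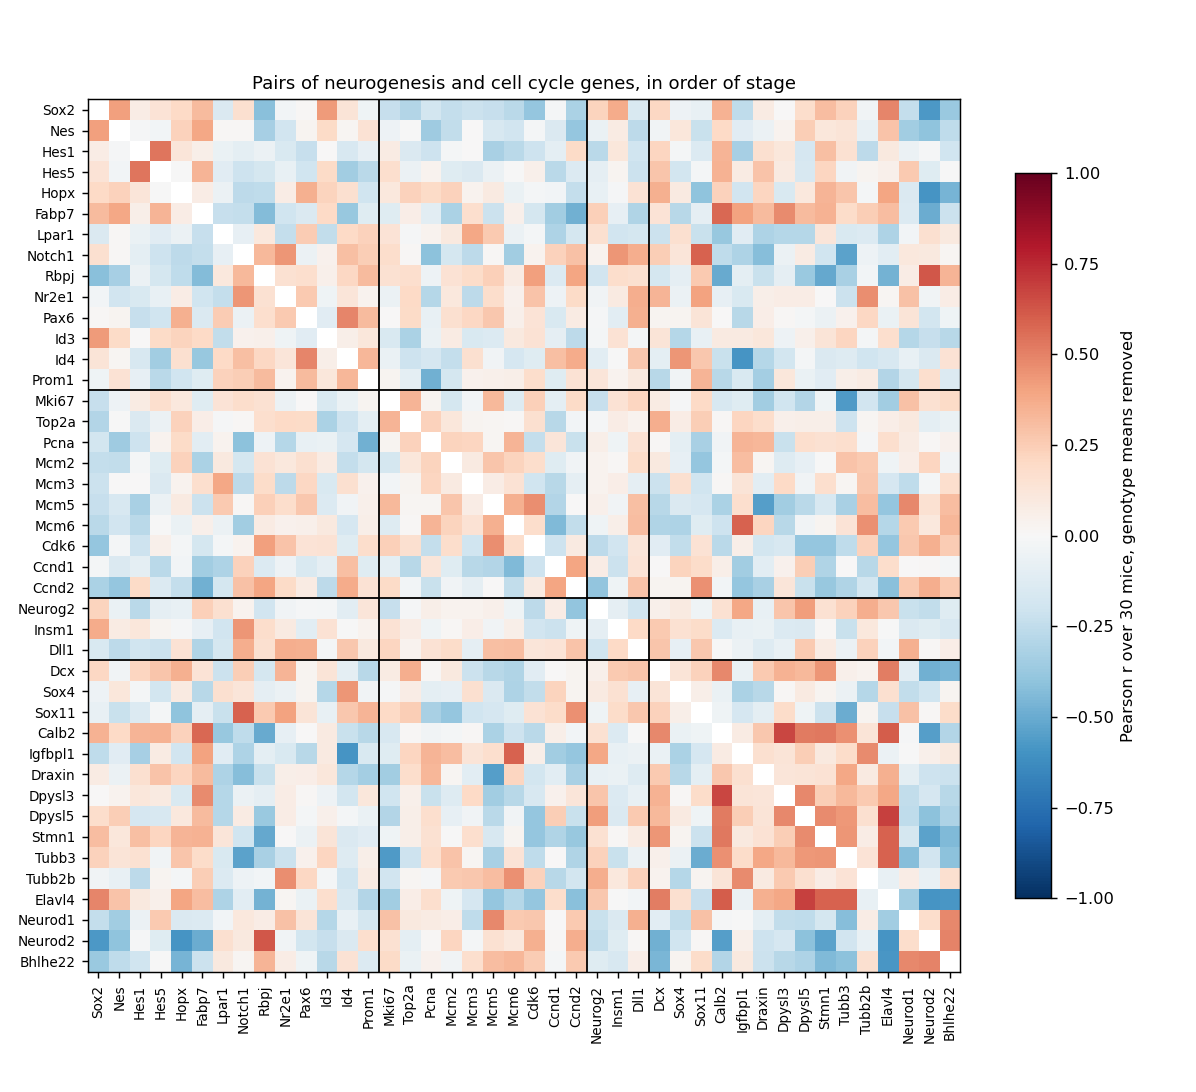
Pearson's r over 30 mice between each pair of the 42 genes after removal of the genotype means, with genes in order of stage on both axes and black lines between stages. Values over 0.5 gather in the immature neuron block (8 of 105 pairs, highest 0.69), while the cell cycle block holds 0 of 45. Some cell cycle genes had few counts, and the part of counting error in r was not tested. Mouse 18, with the lowest Calb2, takes part in each value, and r without it was not computed.

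Pooled over the genotypes, Dcx had r of 0.29 or less with the means of the other stages. Over the 30 mice its log2 level had r = 0.29 (rho = 0.26) with the mean of the stem cell and Notch genes, r = 0.02 (rho = 0.06) with that of the cell cycle genes, r = 0.26 (rho = 0.12) with that of the intermediate progenitor genes and r = -0.20 (rho = -0.26) with that of the dentate granule cell markers. Within TIMP2 KO and WT mice, r was 0.10 and 0.47 for the stem cell and Notch mean, 0.17 and -0.11 for the cell cycle mean, 0.57 and -0.02 for the intermediate progenitor mean and -0.13 and -0.30 for the dentate mean. Without the 2 mice of most extreme Dcx, r with the intermediate progenitor mean was 0.05. Of 19 relations of Dcx tested by permutation, 0 had an adjusted p under 0.05. The highest was with Elavl4 (r = 0.51, permutation p = 0.00458, adjusted p = 0.0593, and rho = 0.37, permutation p = 0.0453, adjusted p = 0.430), and r was 0.43 without the 2 mice of most extreme Dcx, 0.48 within TIMP2 KO and 0.57 within WT mice. The 5 genes most like Dcx among 16485 compared, by r over 30 mice with the genotype means removed, were Spata7 (0.75), Mblac2 (0.73), Grb10 (0.72), Dzank1 (0.72) and Pcdh18 (0.71), none of them on the list.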

How the data were processed

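Hippocampal RNA from 30 mice was sequenced as poly(A)-selected, paired-end libraries. Per the labels and the study's methods, the authors trimmed reads with Trimmomatic 0.36, aligned them to GRCm38 with STAR 2.5.2b and counted them with featureCounts from Subread 1.5.2. They deposited raw counts per gene with no normalization. The strand setting and annotation release are not given in the sources used here. Groups were taken from the genotype and sex in the labels, and all 30 columns were matched to a mouse. Symbols, positions and exon lengths were taken from GENCODE M21.

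The counts were normalized by TMM and filtered with filterByExpr in edgeR 4.0.16 (R 4.3.3), and TIMP2 KO was compared with WT by the quasi-likelihood test without covariates. The study's threshold, an unadjusted p under 0.05, was used beside Benjamini-Hochberg adjusted values over all genes tested. The comparison was repeated in each sex, and the interaction of sex and genotype and the comparison of females with males were tested. Log2 levels are log2 CPM with a prior count of 2, and correlations were tested with 100000 permutations, two-sided. The steps were tested on simulated data.

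Alternatives were DESeq2 1.42.0, RLE size factors, a minimum of 10 counts per mouse or no filter, a term for sex with or without 8 surrogate variables (sva 3.50.0), limma 3.58.1 voom with sample weights and a prior count of 0.5. Leaving out mouse 11, 10 or 18 was added after the data were seen. The genes and lists were chosen with earlier results of these data known. Named genes were 10 stage markers whatever their values (Sox2, Nes, Hopx, Mki67, Top2a, Eomes, Neurod1, Dcx, Calb2 and Sox11), those with an unadjusted p under 0.05 in a comparison, and the 6 other pathway genes with the smallest p. Other genes were named after their values were seen. Harvest date, which the study treated as a batch in its network analysis, is not in the labels, and its part was not tested. With 18345517 to 41081083 counts per mouse, the spread between mice limits the precision of well-covered genes and counting error that of Eomes, Cdk1, Top2a and Draxin. The p-values of the fits set each difference against the spread between these mice, taken as independent. Those of the correlations come from permutation of the mice.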

Additional observations from a re-analysis of the deposited data

Results flagged for a closer look

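A value is given here when 1 mouse stood apart from the others of its genotype and sex by Dixon's test, for 34 quantities in 136 groups of mice. Chance gives such a value in about 1 of 20 groups, which is 6.8 here, and 10 were found. All are log2 CPM. In TIMP2 KO males, mouse 18 had the lowest Timp2 (7.02, the others 7.28 to 7.39) and the lowest Calb2 (3.06, the others 4.96 to 5.26), and mouse 15 had the highest Mki67 (1.23, the others 0.60 to 0.77). In TIMP2 KO females, mouse 5 had the highest Sox2 (5.93, the others 5.72 to 5.80) and the highest mean of the stem cell and Notch genes (4.51, the others 4.39 to 4.44). In WT females, mouse 21 had the highest Mcm6 (4.62, the others 4.15 to 4.31). In WT males, mouse 24 had the lowest Sox2 (5.51), mouse 6 the lowest Nr2e1 (3.76) and the lowest Dkk3 (8.70), and mouse 31 the highest Hmgb2 (2.90, the others 2.12 to 2.39).

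The effect of genotype on Neurod2 differed between the sexes by a log2 fold change of -0.20 in the interaction test of edgeR (p = 0.0224, adjusted p = 1.00), and by -0.14 (p = 0.0742) without mouse 18.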

How the results depend on the processing

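The call of Mcm6 and Tubb3 in TIMP2 KO against WT held in all 10 alternative fits, and that of Id3 in all but the fit without mouse 10 (log2 fold change 0.10, p = 0.0518). None of these fits left out mouse 21, which had the highest Mcm6. Of the other counts, 1971 of 33550 genes (5.87%) had an unadjusted p under 0.05 without a filter, against 5.03% in the main fit. With sex and surrogate variables 5 listed genes passed (Id3, Prom1, Mcm6, Neurog2 and Tubb3), where 7.07% of all genes did. Of the other pathway genes, 5 passed by limma voom (5.82% of all genes did) and 4 without mouse 18 (5.6% of all genes did). Within the sexes, 6 listed genes passed in females without mouse 11, among them Eomes, which did not pass the filter in females with that mouse. In males 1 passed without mouse 10 and 2 without mouse 18, and 0 passed in the interaction without mouse 18. The causes were not tested.

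Values near 0 changed sign in TIMP2 KO against WT. With sex and surrogate variables the log2 fold change was -0.0058 for Nr2e1 and -0.0085 for Tubb2b. By limma voom it was 0.0086 for Pax6 and 0.0174 for Calb2. Without mouse 10 it was 0.0002 for Pax6, 0.0031 for Sox11 and 0.0024 for Neurod2. Without mouse 11 it was -0.0023 for Dcx and 0.0137 for Neurod2, and without mouse 18 it was 0.0563 for Calb2. Neurod2 was at 0.0005 without a filter and at 0.0079 with sex as a covariate. The cause of these changes was not tested. No paired analysis was possible because each mouse has a number of its own in the labels and no label pairs mice across genotypes. Depth limits Eomes and Cdk1, whose counts per mouse were at most 22 and 16.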

Other observations

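A set of 7 relations was chosen after the data were seen, and permutation over the 30 mice gave p-values adjusted over the 7. Because the relations were picked from these same data, the p-values describe them and are no test. The permutations did not keep genotype or sex apart. Neurod1 rose and fell with the mean of the 12 dentate granule cell markers (r = 0.80, rho = 0.77, permutation p = 1e-05 for both, the smallest that 100000 permutations can give, adjusted p = 7e-05). It remained at r = 0.71 after the 2 most extreme mice were left out, with r = 0.82 among TIMP2 KO and r = 0.80 among WT mice. The Notch targets Hes1 and Hes5 varied together (r = 0.54, rho = 0.61, permutation p = 0.00203 and 0.00039, adjusted p = 0.00474 and 0.00091), with r = 0.43 within TIMP2 KO and 0.63 within WT mice, and r = 0.49 without the 2 most extreme mice. Id3 varied with the mean of the ependymal cell markers (r = 0.55, rho = 0.63, permutation p = 0.00155 and 0.00037, adjusted p = 0.00474 and 0.00091, r = 0.50 without the 2 most extreme mice), with r = 0.68 in females and 0.27 in males. That mean ranged from -1.07 to 2.22 in TIMP2 KO and from -0.91 to 2.15 in WT mice. Id3 had r = 0.04 with the astrocyte mean and r = 0.32 with the choroid plexus mean, neither with an adjusted p under 0.05. Mcm6 had r = 0.48 with the dentate granule cell mean (rho = 0.39, permutation p = 0.00813 and 0.0362, adjusted p = 0.0142 and 0.0634), but r was 0.04 among TIMP2 KO and 0.63 among WT mice, and 0.36 without the 2 most extreme mice. Neurog2 had r = -0.04 with the same mean.

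Calb2 was closest to Rxrg (r = 0.93), Trhr (0.93), Nnmt (0.90), Dcn (0.90) and Hpcal1 (0.90) over the 30 mice with genotype means removed, and mouse 18, with 8.24 CPM of Calb2, takes part in each of these values. Neurod1 was closest to Ccdc85a (0.83) and Prox1 (0.76), and Id3 to Ccdc146 (0.72). These 3 genes were chosen after their values were seen.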
